A study of Mus musculus with 12 samples.

Results

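Gene expression was compared between the 2 sorted cell populations of control newborn mouse kidney, which the sample titles call high and low expression. The comparison takes all libraries titled as control: 2 control high and 4 control low, 6 of the 12 libraries in the series. All came from kidney cells at postnatal day 0 and carried an R26R-tdTomato reporter, a red fluorescent protein gene at the Rosa26 locus. Per the labels, Six2-expressing cells were isolated by flow cytometry and cDNA was made from small RNA amounts with a SMART-Seq kit. The other 6 libraries, 2 high and 4 low, carry the title mutant in a series on Eed and give values set beside the control ones. They also entered the same fit, so they shaped the choice of loci, the scaling and the spread behind the control p-values. High and low are not tied to a named signal in the labels. The sources used here give neither the strain nor the driver of the reporter, the control genotype or whether libraries came from separate animals. The p-values therefore reflect only the spread among libraries, which may be technical.

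The mouse nephron arises from mesenchymal progenitors that surround the tips of the branching ureteric bud. Six2, a transcription factor, holds these cells in a self-renewing state, and WNT signals from the bud drive them into an epithelial vesicle that elongates into podocytes, proximal tubule, loop of Henle and distal tubule. In the newborn mouse kidney progenitors and differentiated nephrons exist side by side. A reporter switched on by recombination stays on in the descendants of a cell, after the gene that drove recombination has been silenced.

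Library totals were 6249263 and 4549011 fragments in control high and 6784907 to 12365078 in control low cells. Values are CPM, fragments per 1000000 after TMM scaling, and a level of a gene is not corrected for transcript length. Log-scale values of the 2 high libraries correlated at 0.963 and those of the low libraries at 0.95 to 0.975, against 0.694 to 0.797 between high and low, all across loci, which are not independent replicates. Mitochondrial chromosome RNA took 4.51% and 10.3% of the high libraries and 0.767% to 1.96% of the low ones (exact permutation test, two-sided p = 0.0667, the smallest that 2 against 4 allows). Its part in the results below was not tested beyond leaving the chromosome out, which gave 3472 loci higher and 3718 lower. In bulk RNA of sorted cells, fewer cells of a type and less RNA per cell cannot be told apart.

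Cells of the control low libraries carried RNA of nephron progenitors, and cells of the control high libraries carried RNA of differentiated tubules. Six2 itself was lower in the libraries titled high. With 13749 loci in edgeR's quasi-likelihood test and a threshold of 0.05 on the adjusted p, control high cells had 3478 loci (25.3%) above and 3719 (27.0%) below their level in control low cells. The median log2 fold change was 2.24 among the higher and -1.67 among the lower loci. It was -0.13 over all loci with TMM scaling and -0.03 with RLE scaling, so the choice of scaling moves the fold changes below by a small amount. Which scaling is nearer the true changes was not tested. Ranges of the groups did not overlap for 30.7% of loci on the higher side and 35.4% on the lower side. Without control high replicate 2 the number of lower loci fell to 2324, and without control high replicate 1 it was 2831.

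**Figure D1:**
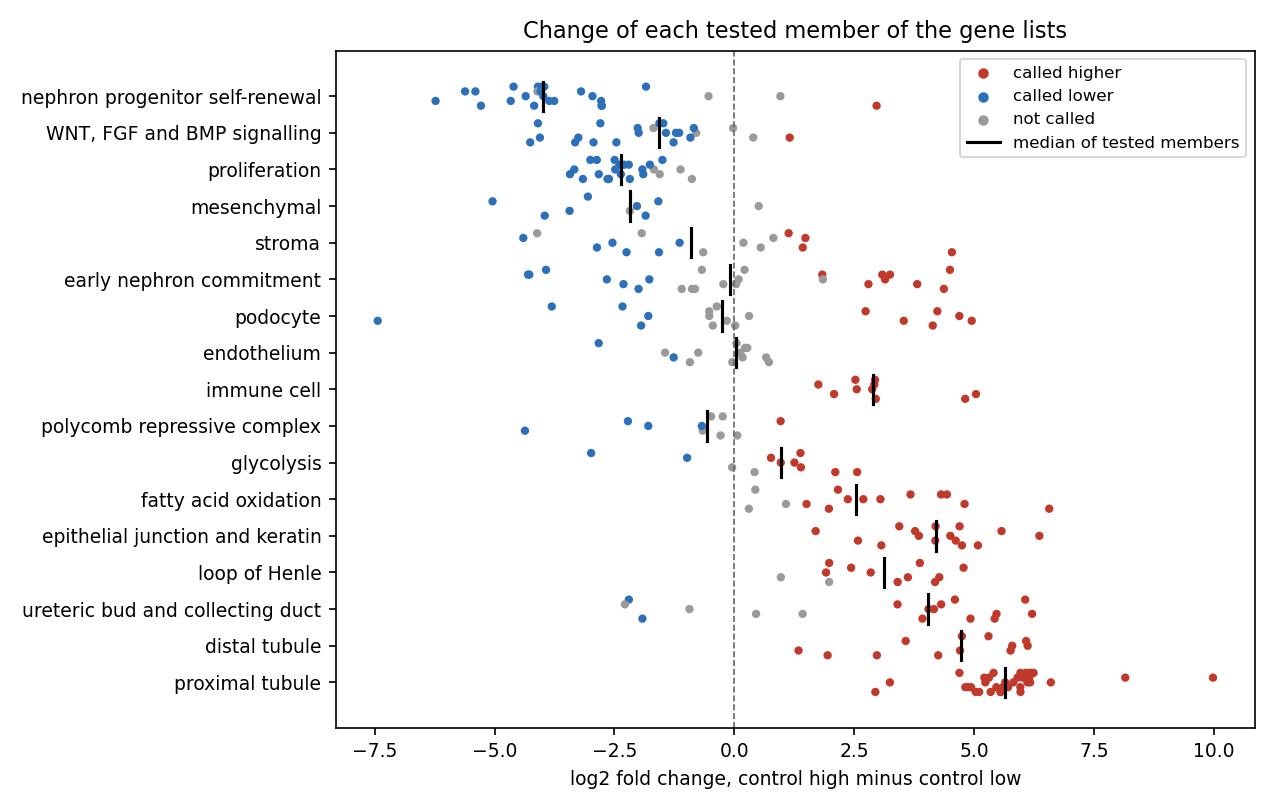
Log2 fold change of control high minus control low for each tested member of 17 gene lists, one point per gene, coloured by its call (adjusted p under 0.05, edgeR), with the list median as a black bar. Progenitor members lie mostly left of 0, with a median of -3.98, and all 35 proximal tubule members lie right of it, with a median of 5.65.

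Genes of progenitor self-renewal were lower in control high cells. Of the 26 listed genes 25 were located, all were tested, 21 were lower, 1 was higher and 3 were not called, with a median log2 fold change of -3.98 beside -0.13 for all loci. Six2 (chromosome 17, 86083608 to 86087594, minus strand, mm9) stood at 63.4 and 16.7 CPM in the 2 high libraries and at 1967, 1587, 1360 and 1897 CPM in the 4 low libraries. The groups were far apart, and the log2 fold change was -5.40 (SE 0.51, adjusted p = 8.3e-07). Eya1, a partner of Six2 in transcription, was at 28.3 and 3.12 CPM in high and at 621 to 937 CPM in low libraries (log2 fold change -5.62, SE 0.67, adjusted p = 1.19e-05). For both genes the second high library was the lower one, by several fold.

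Gdnf, the ligand by which progenitors induce the ureteric bud to branch, had 3 fragments over the high libraries and 1039 over the low ones. This is a low to high ratio of 77.3 (exact binomial 95% interval 26.4 to 375, counting error only). Rspo1, a secreted enhancer of WNT signalling, was at 26.6 and 9.36 CPM in high libraries and at 560 to 923 CPM in low ones (log2 fold change -5.28, adjusted p = 6.57e-07). Fgf20, a ligand that maintains progenitors, fell by 4.60 on the log2 scale (adjusted p = 0.000121).

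Among other regulators of the list, Sall1, a zinc finger factor required for kidney formation, was at 60.1 and 41.1 CPM in high and 307 to 396 CPM in low libraries (log2 fold change -2.78, SE 0.25, adjusted p = 6.63e-07). Robo2, the receptor that limits the site of Gdnf expression, was at 26.8 and 11.9 CPM against 270 to 363 CPM (log2 fold change -4.01, adjusted p = 6.33e-07). Cited1, found in the least committed progenitors, was at 3.33 and 4.54 CPM against 19.5 to 35.0 CPM (log2 fold change -2.77, SE 0.56, adjusted p = 0.000833). With each transcript as a feature Cited1 was not called (log2 fold change -2.51, adjusted p = 0.127). Each of these genes had lower values in both high libraries than in any low library. Wt1, Hoxa11 and Hoxd11, regulators of early kidney mesenchyme, had log2 fold changes of -3.96, -3.98 and -3.20.

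Fgf9 and Dpf3 did not follow most of the list, and Pax2 followed it in direction but was not called. These genes were picked out after their values were seen. Fgf9, a growth factor that supports progenitor upkeep, rose, from 9.82 to 14.9 CPM in low libraries to 87.4 and 91.9 CPM in high ones (log2 fold change 2.97, SE 0.24, adjusted p = 2.53e-07). Pax2, a regulator of kidney formation, was at 1.04 and 1.13 CPM in high libraries and at 5.03, 4.62, 1.95 and 63.2 CPM in low ones. The groups did not overlap, but one low library stood far above the rest. Pax2 was not called (log2 fold change -4.11, SE 1.73, adjusted p = 0.0704), though it was without control low replicate 3 (0.0291) and with DESeq2 (0.0099). Dpf3, a chromatin reader, was at 1.64 to 7.20 CPM with overlapping groups.

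Cell cycle and mesenchymal genes were lower in high cells along with the progenitor genes. Of 23 located proliferation genes, 19 were lower in high cells, none was higher and 4 were not called (median log2 fold change -2.37). Their summed level was 892 and 806 CPM in high and 4379 to 6340 CPM in low libraries. Cdk1, the kinase of mitotic entry, was at 172 and 157 CPM in high and at 665 to 981 CPM in low libraries (log2 fold change -2.30, adjusted p = 7.37e-05). Mcm6, a subunit of the helicase that opens DNA for replication, fell by 3.43 on the log2 scale (adjusted p = 7.67e-05). Of 9 located mesenchymal genes 7 were lower, none was higher and 2 were not called (median -2.18). Cdh11, a mesenchymal cadherin, was at 49.3 and 35.4 CPM against 483 to 876 CPM (log2 fold change -3.95, SE 0.33, adjusted p = 3.05e-07). Zeb1, a repressor of epithelial genes, fell by 5.04 on the log2 scale. Fn1, fibronectin, was at 107 and 88.5 CPM in high and 57.3 to 85.1 CPM in low libraries and was not called (adjusted p = 0.176). With each transcript as a feature its most abundant transcript was lower instead (log2 fold change -1.26, adjusted p = 0.0341).

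Receptors and targets of the WNT, FGF and BMP pathways in progenitors were mostly lower too. Of 23 listed genes 18 were lower, 1 was higher and 4 were not called (median log2 fold change -1.56). Fgfr1, the receptor for FGF signals in progenitors, was at 51.4 and 43.1 CPM in high and 346 to 540 CPM in low libraries (log2 fold change -3.25, adjusted p = 4.71e-06). Etv4, a transcription factor induced by such signals, was at 42.2 and 17.9 CPM against 445 to 629 CPM (log2 fold change -4.09, adjusted p = 1.34e-06). Mycn, a growth-promoting factor, fell by 4.26 and Axin2, a WNT target, by 2.46 on the log2 scale. The 1 higher gene was Igf2bp1, an RNA-binding protein, whose ranges overlapped (adjusted p = 0.0496). No member of the list was higher when control low replicate 1, 3 or 4 or control high replicate 1 was left out. With each transcript as a feature 9 members of the list were lower, against 18.

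**Figure D2:**
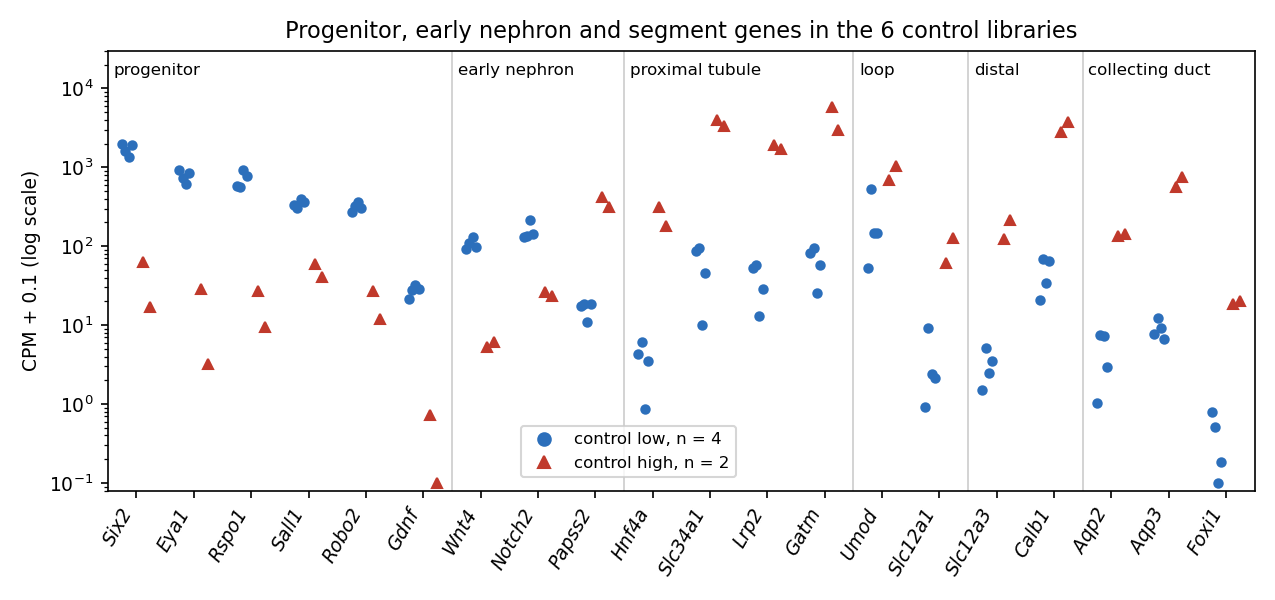
CPM plus 0.1 on a log axis for 20 genes, with 4 control low libraries as circles and 2 control high libraries as triangles. The 6 progenitor genes, Wnt4 and Notch2 lie higher in low libraries, and Papss2 and the tubule genes lie higher in high libraries, with Umod in low replicate 2 (527 CPM) closest to the high libraries.

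Of 24 tested genes of early nephron commitment, 8 were higher, 7 were lower and 9 were not called (median log2 fold change -0.10), near the shares of 25.3% and 27.0% over all loci, and their summed level was 1226 and 1088 CPM in high and 904 to 1386 CPM in low libraries. Wnt4, the signal that turns progenitors into epithelium, was at 5.20 and 5.95 CPM in high and at 91.6 to 132 CPM in low libraries (log2 fold change -4.27, SE 0.37, adjusted p = 4.06e-07). Notch2, the main Notch receptor of the early nephron, was at 26.0 and 23.2 CPM against 130 to 214 CPM (log2 fold change -2.66, adjusted p = 1.5e-05). Heyl, Hey1 and Lfng, which act in Notch signalling, were also lower. Papss2, an enzyme of sulphate activation, was at 419 and 315 CPM in high and at 10.9 to 18.5 CPM in low libraries (log2 fold change 4.50, adjusted p = 6.55e-08). Irx1, Irx2 and Irx3, regulators of the middle nephron segments, rose by 2.80, 3.14 and 3.08 on the log2 scale, and Irx1 was not called without control high replicate 2 (adjusted p = 0.0577). Lhx1, Jag1, Pax8 and Cdh6 were not called, and Cdh6, a cadherin of the early proximal nephron, was at 236 and 182 CPM in high and 144 to 282 CPM in low libraries.

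All 35 listed genes of the proximal tubule were located, tested and higher in control high cells, with log2 fold changes of 2.94 to 9.98 and no overlap between the groups. Their summed level was 38776 and 26625 CPM in the high libraries and 835, 1060, 317 and 686 CPM in the low libraries, so the low mean was 2.22% of the high mean. The low libraries themselves differed by several fold, with replicate 3 the lowest. Hnf4a, the transcription factor that directs proximal differentiation, was at 314 and 180 CPM in high and at 4.21, 5.98, 0.757 and 3.45 CPM in low libraries (log2 fold change 6.11, SE 0.62, adjusted p = 5.66e-06). Of membrane proteins, Slc34a1, the sodium-phosphate cotransporter of the brush border (chromosome 13, 55501009 to 55516056, plus strand), was at 4028 and 3357 CPM in high libraries. It was at 86.8, 93.6, 9.83 and 46.3 CPM in low ones (log2 fold change 5.97, SE 0.86, adjusted p = 0.000168). Lrp2, megalin, the receptor that takes up filtered protein, was at 1896 and 1702 CPM against 12.9 to 58.4 CPM (log2 fold change 5.55, adjusted p = 6.5e-07). Slc3a1, a subunit of the cystine transporter, was at 3802 and 1655 CPM against 46.9 to 144 CPM (log2 fold change 4.87, adjusted p = 2.53e-07).

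Gatm, which makes the precursor of creatine, was at 5796 and 2944 CPM in high and at 25.5 to 95.0 CPM in low libraries (log2 fold change 6.08, SE 0.44, adjusted p = 1.27e-07). Miox, myo-inositol oxygenase, was at 4718 and 3886 CPM against 22.7 to 156 CPM (log2 fold change 5.46, adjusted p = 2.6e-05). The smallest changes of the list were in Acy3, an aminoacylase, and Dab2, an endocytic adaptor that was at 70.8 to 108 CPM in low libraries. They rose by 2.94 and 3.24 on the log2 scale.

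The promoters were searched for the letters of a binding motif of HNF4, the family of Hnf4a, chosen like the other motifs below with the expression results known. The 9 letters CAAAGTCCA, on either strand, occurred in the 300-base promoter window (250 bases before to 50 after a RefSeq gene start, GRCm38.p6) of 3 of the 31 proximal tubule genes that had one. They occurred in 150 of all 27025 genes with a promoter (0.555%), in 12 of 528 genes that rose by at least 4 on the log2 scale (2.27%) and in 1 of 231 that fell by that much (0.433%). The 3 genes, Slc3a1, Pdzk1 and Agxt2, are shown because they carry both the letters and the rise. Their windows lie on the plus strand at chr17:85028097-85028396, chr3:96829815-96830114 and chr15:10358283-10358582, in GRCm38.p6 and not in the mm9 build of the expression table. The capitals mark the letters.
Slc3a1: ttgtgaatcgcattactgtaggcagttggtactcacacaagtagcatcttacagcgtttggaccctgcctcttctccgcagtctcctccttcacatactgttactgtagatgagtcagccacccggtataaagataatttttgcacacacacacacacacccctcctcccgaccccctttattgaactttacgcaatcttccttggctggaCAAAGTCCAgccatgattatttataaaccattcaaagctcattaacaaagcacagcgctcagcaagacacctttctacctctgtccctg
Pdzk1: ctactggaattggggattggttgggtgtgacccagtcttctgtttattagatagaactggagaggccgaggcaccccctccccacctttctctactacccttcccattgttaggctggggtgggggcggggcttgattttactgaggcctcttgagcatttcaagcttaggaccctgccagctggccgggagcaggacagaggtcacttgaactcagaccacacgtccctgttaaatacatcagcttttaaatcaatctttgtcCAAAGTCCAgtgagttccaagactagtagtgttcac
Agxt2: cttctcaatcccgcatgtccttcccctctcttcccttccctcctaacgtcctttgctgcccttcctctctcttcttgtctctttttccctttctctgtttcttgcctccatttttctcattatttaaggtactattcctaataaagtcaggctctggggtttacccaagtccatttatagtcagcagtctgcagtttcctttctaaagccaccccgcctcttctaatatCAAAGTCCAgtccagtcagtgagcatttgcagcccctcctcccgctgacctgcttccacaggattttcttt
The letters lie at bases 212 to 220 of the Slc3a1 window, 265 to 273 of the Pdzk1 window, which is past the gene start, and 230 to 238 of the Agxt2 window. Pdzk1, a scaffold for brush border transporters, was at 97.1 and 156 CPM in high and 0.757 to 3.40 CPM in low libraries (log2 fold change 5.91). Agxt2, an aminotransferase, was at 32.5 and 22.1 CPM against 0.544 to 1.48 CPM (log2 fold change 4.82). A further motif, searched the same way and not shown, was in 3 of all 27025 genes and in no proximal tubule gene. The letters TCAGGTTTC, a motif of Six2, were in 0.511% of all genes, 0.433% of those that fell by at least 4 and 0.379% of those that rose by at least 4. The letters CTTTGATC, bound by TCF and LEF factors, were in 1.09%, 0.433% and 1.89%. A match is a description of these letters in this window only.

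**Figure D3:**
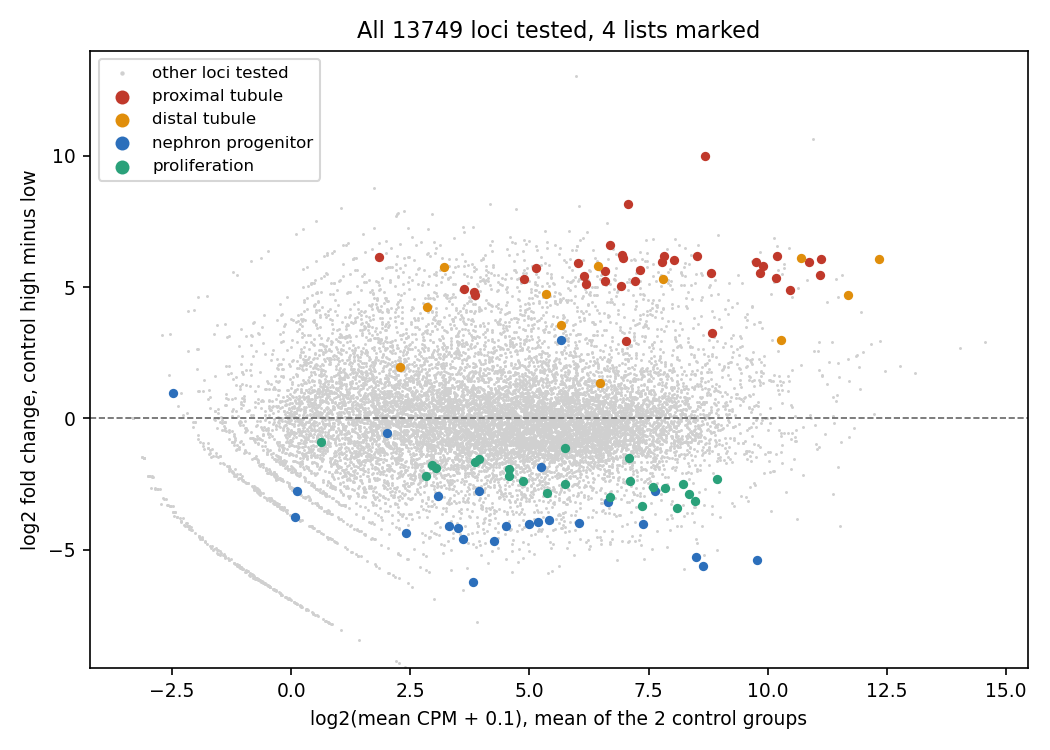
Log2 fold change of control high minus control low against log2 of the mean CPM plus 0.1 for all 13749 loci tested (grey), with members of 4 lists coloured. Proximal and distal tubule members lie above 0, proliferation members lie below it, and progenitor members lie mostly below it.

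Loop of Henle genes were mostly higher in high cells, and their mean summed level in low libraries was 12.1% of that in high ones. Of 12 tested, 10 were higher, none was lower and 2 were not called (median log2 fold change 3.12). Slc12a1, the sodium-potassium-chloride cotransporter of the thick ascending limb, was at 62.0 and 128 CPM in high and at 0.819, 8.97, 2.27 and 2.05 CPM in low libraries (log2 fold change 4.78, SE 0.75, adjusted p = 0.00026). Sostdc1, a secreted inhibitor of BMP and WNT signals, was at 1224 and 1532 CPM against 32.5 to 135 CPM (log2 fold change 3.87, adjusted p = 0.000489). With a block for the description number Sostdc1 was not called (log2 fold change 3.75, adjusted p = 0.0554). Umod, uromodulin, the most abundant urinary protein, was at 683 and 1038 CPM in high libraries and at 53.4, 527, 148 and 146 CPM in low ones. Low replicate 2 reached most of the level of the lower high library, and Umod was not called (log2 fold change 1.98, SE 0.89, adjusted p = 0.0899). Without that library it was (log2 fold change 2.89, adjusted p = 0.0134).

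Distal tubule genes were higher in all 12 tested members (median log2 fold change 4.73). Slc12a3, the thiazide-sensitive sodium-chloride cotransporter, was at 123 and 217 CPM in high and 1.40 to 5.03 CPM in low libraries (log2 fold change 5.79, SE 0.44, adjusted p = 1.77e-07). Calb1, calbindin, a calcium-binding protein, was at 2808 and 3762 CPM against 20.7 to 69.4 CPM (log2 fold change 6.12, adjusted p = 4.11e-07). Fxyd2, the gamma subunit of the sodium pump, was at 7088 and 13284 CPM against 134, 414, 23.5 and 30.1 CPM (log2 fold change 6.08, SE 1.30, adjusted p = 0.00333). In a fit of the 8 libraries whose description numbers occur in both populations, Fxyd2 was not called (log2 fold change 5.54, adjusted p = 0.067). Nor was Fxyd2 called with a block for the description number (log2 fold change 6.59, adjusted p = 0.161). Atp1b1, the beta subunit of the pump, is made along the whole tubule and rose by 4.71 on the log2 scale. Low replicate 2 had the highest summed level of the distal list among low libraries, 1531 CPM against 536 to 573 CPM in the other 3.

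The list for ureteric bud and collecting duct covers a lineage apart from the nephron. Of 17 tested, 11 were higher, 2 were lower and 4 were not called (median log2 fold change 4.05). Aqp3, a basolateral water channel, was at 568 and 749 CPM in high and at 6.57 to 12.4 CPM in low libraries (log2 fold change 6.21, SE 0.34, adjusted p = 2.18e-08). Aqp2, the water channel that vasopressin regulates, was at 134 and 144 CPM against 0.936 to 7.47 CPM (log2 fold change 4.92, adjusted p = 7.91e-06). Scnn1b and Scnn1g, subunits of the epithelial sodium channel, which the connecting segment also makes, rose by 5.43 and 5.47. Gata3 and Tfap2b, transcription factors of the bud and distal nephron, rose by 3.92 and 4.16. Hsd11b2, the enzyme that shields the mineralocorticoid receptor from cortisol, was at 58.9 and 64.1 CPM in high and 91.0 to 155 CPM in low libraries. Its groups did not overlap, and it was not called (log2 fold change -0.94, adjusted p = 0.0555), but was when control low replicate 4 was left out (0.0455). Wnt11, a signal of the tip, was at 12.5 and 5.95 CPM against 20.2 to 47.9 CPM (log2 fold change -1.92, adjusted p = 0.000949). Ret, the receptor for Gdnf at the tip, had 3 fragments over the high libraries and 65 over the low ones. This is a low to high ratio of 4.84 (interval 1.58 to 24.1), and the call was lost without either high library (adjusted p = 0.0917 without replicate 1 and 0.138 without replicate 2). Hoxb7, made throughout the bud lineage, was at 100 and 102 CPM in high and 61.3 to 87.0 CPM in low libraries and was not called (adjusted p = 0.126).

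The 12 largest rises and falls were ranked over called loci that changed by 2 or more on the log2 scale, reached a mean of 20 CPM in the higher group and had separate ranges, which 1116 higher and 713 lower loci did. Among the rises were Slc4a1, Slc26a4 and Atp6v1g3, known from the acid and base secreting intercalated cells of the distal nephron and duct. No list of such genes was fixed. Slc4a1, the anion exchanger shared by intercalated and red blood cells, was at 138 and 254 CPM in high and 0.903 to 1.51 CPM in low libraries (log2 fold change 7.45, SE 0.42, adjusted p = 2.26e-08). Slc26a4, pendrin, was at 21.8 and 26.1 CPM against 0 to 0.324 CPM. Atp6v1g3, a subunit of the proton pump, was at 68.2 and 194 CPM against 0 to 0.903 CPM. Foxi1, the transcription factor that specifies these cells, belongs to the duct list and not to the 12 largest rises, and was at 18.5 and 20.4 CPM against 0 to 0.702 CPM (log2 fold change 6.07, adjusted p = 1.5e-06). Each gene was near 0 in every low library.

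The largest rise was in S100g, a calcium-binding protein, from 1.52 to 3.80 CPM in low libraries to 2165 and 5776 CPM in high ones (log2 fold change 10.64, SE 0.96, adjusted p = 4.19e-06). Spp2, a secreted phosphoprotein, was next, at 603 and 1033 CPM against 0.108 to 1.77 CPM (log2 fold change 9.98). Others were Slc5a12, a lactate cotransporter of the proximal tubule, Cyp27b1, the enzyme that activates vitamin D, and 2 glucuronosyltransferases, Ugt2b5 and Ugt2b34. They rose by 8.15, 7.14, 7.27 and 7.12 on the log2 scale. The remaining 3 were Spink1, Akr1c19 and Hoga1. Of the 12 largest rises, 2 (Spp2 and Slc5a12) belong to the proximal tubule list.

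Of the 12 largest falls, Gdnf, Eya1 and Six2 belong to the progenitor list. Il33, a cytokine kept in the nucleus, was at 19.3 and 2.27 CPM in high and at 496, 474, 351 and 1056 CPM in low libraries (log2 fold change -5.74, SE 1.31, adjusted p = 0.00436). Tnfrsf19, a receptor of the tumour necrosis factor family, and Cdh22, a cadherin, had log2 fold changes of -5.88 and -5.80. Col2a1, a fibrillar collagen, was at 1.66 and 0.567 CPM against 112, 26.8, 27.9 and 44.8 CPM, with low replicate 1 well above the rest. Others were Dpysl4, C130021I20Rik, Sncaip and Mdga2.

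Epithelial junction and keratin genes rose as a group. All 15 tested members were higher (median log2 fold change 4.20), and their summed level was 10128 and 9702 CPM in high and 312 to 841 CPM in low libraries. Cdh16, the kidney-specific cadherin, was at 5817 and 5165 CPM against 101 to 424 CPM (log2 fold change 4.62, SE 0.47, adjusted p = 1.93e-06). Epcam, an epithelial adhesion molecule, was at 1026 and 1110 CPM against 92.1 to 163 CPM (log2 fold change 3.07, adjusted p = 4.11e-07). Krt8, a keratin of simple epithelia, rose by 5.08 and Cdh1, the main epithelial cadherin, by 4.75 on the log2 scale.

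Podocyte genes mark the filter cells at the proximal end of the nephron. Of 18 tested, 6 were higher, 5 were lower and 7 were not called (median log2 fold change -0.26), near the shares of 25.3% and 27.0% over all loci. Nphs1, nephrin, had 7 fragments over the high and 2 over the low libraries and was not tested. Npnt, nephronectin, a matrix protein also made by tubule epithelium, held most of the list's fragments in the high libraries, at 3026 and 3100 CPM against 87.0 to 112 CPM (log2 fold change 4.95). Foxc2, a factor of early podocytes, fell by 3.81, and Lmx1b, another such factor, had no fragment in the high libraries and was at least 7.22-fold lower there. With each transcript as a feature 3 members were lower, against 5.

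**Figure D4:**
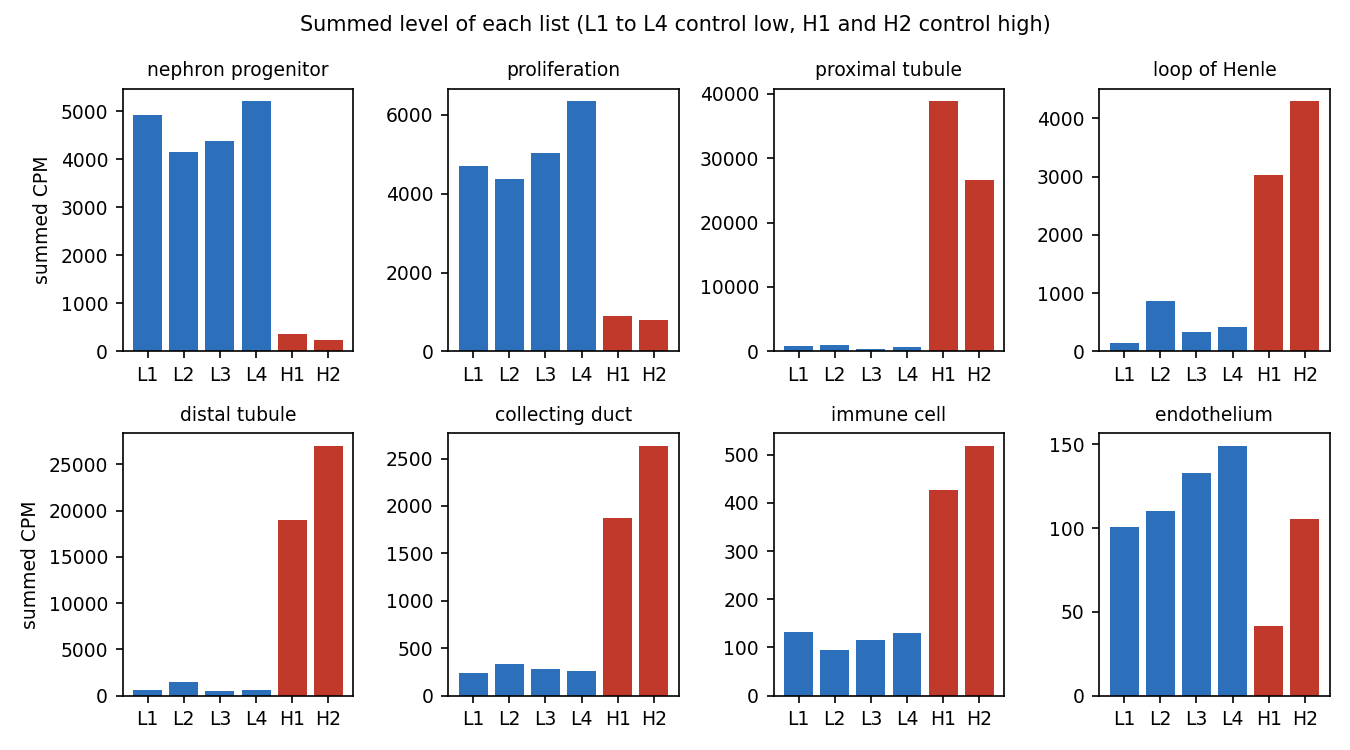
Summed CPM of 8 gene lists in each control library, with bars from 0, L1 to L4 for control low (blue) and H1 and H2 for control high (red), each panel on its own scale. Progenitor and proliferation sums are high in the blue bars, tubule and immune sums are high in the red bars, and L2 has the highest loop and distal sums of the low libraries.

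Markers of immune, endothelial, stromal and red blood cells were also measured. Immune genes were higher in high cells in all 10 tested members of 15 (median log2 fold change 2.90), with a summed 426 and 519 CPM in high and 94.3 to 133 CPM in low libraries. Csf1r, the receptor of the macrophage growth factor, was at 52.0 and 55.0 CPM against 5.71 to 8.19 CPM (log2 fold change 2.94, adjusted p = 9.79e-07), and Cd74, the invariant chain of antigen presentation, at 286 and 350 CPM against 70.5 to 110 CPM. Coro1a was listed at 0 in all 6 libraries, and C1qa, Aif1 and Lyz2 were at 0 in all low libraries and at most 1.13 CPM in a high one. The part of such cells in the other results was not tested.

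Endothelial genes summed to 41.4 and 105 CPM in high and 101 to 149 CPM in low libraries. Of 13 tested, 2 were lower, none was higher and 11 were not called (median log2 fold change 0.04). Over all loci 27.0% were lower and 25.3% higher. Pecam1 and Cdh5, defining adhesion molecules of endothelium, were at 2.91 and 7.94 CPM and at 0 and 2.55 CPM in high libraries. High replicate 2 carried the larger value in 15 of 16 endothelial genes. Several other lists leaned the same way, as given below. Of 16 stromal genes tested, 4 were higher and 6 were lower (median log2 fold change -0.90), beside 25.3% and 27.0% of all loci. The higher ones were Ntn1, a secreted guidance protein (42.6 and 61.5 CPM against 1.75 to 2.63 CPM, log2 fold change 4.54), and the matrix genes Postn, Lum and Col3a1, at 1.48, 1.43 and 1.13 on the log2 scale. Lum was not called without control low replicate 2 or 3 or either high library, and Col3a1 not without control low replicate 1 or 2 or control high replicate 2 (adjusted p = 0.0547 to 0.251 over both). Tbx18, with no fragment in the high libraries, has a bound that sets no direction. Placed at that bound it counts on the higher side, which moved the median to -0.23, so the size of the median is uncertain. Foxd1, the factor that defines stromal progenitors, was at 1.66 and 2.83 CPM against 7.88 to 14.2 CPM (adjusted p = 0.0115, and 0.111 without control high replicate 1). Without that library 3 stromal genes were lower, and without control high replicate 2 or control low replicate 2 the number higher was 2. Aldh1a2, which makes retinoic acid, was at 531 and 339 CPM in low replicates 1 and 2 and 68.4 and 96.6 CPM in replicates 3 and 4. It was lower in high cells (adjusted p = 0.016), but not without control high replicate 1 (0.102) or 2 (0.0871). In the red blood cell list, globin Hba-a1 was not called (9.15 and 34.9 CPM against 8.97 to 22.1 CPM), while Slc4a1 and Epb42, a partner of Slc4a1 in the red cell membrane, were higher. The 4 other located members were not tested.

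Genes of fuel metabolism differed between the populations. Of 14 tested fatty acid oxidation genes 11 were higher, none was lower and 3 were not called (median log2 fold change 2.53), and the summed level was 4974 and 4366 CPM in high and 617 to 812 CPM in low libraries. Acadm, an enzyme that starts the breakdown of medium-chain fatty acids, was at 1852 and 1482 CPM against 102 to 192 CPM (log2 fold change 3.67, SE 0.30, adjusted p = 2.37e-07). The regulators Ppara and Ppargc1a rose by 2.69 and 4.43 on the log2 scale. Of 11 tested glycolysis genes, 7 were higher, 2 were lower and 2 were not called (median 0.97). Hk2, the hexokinase of growing cells, was at 7.07 and 6.24 CPM against 46.6 to 64.0 CPM (log2 fold change -2.99, adjusted p = 4.06e-07). Aldoa, aldolase, was at 3033 and 3866 CPM against 339 to 999 CPM (log2 fold change 2.56, adjusted p = 2.51e-05). Pkm, pyruvate kinase, was lower (adjusted p = 0.0405), but not when control low replicate 1 or 4 or either high library was left out (0.0532 to 0.217), and without control high replicate 2 the number higher was 4. Gapdh was listed at 0 in all 6 libraries and Pgk1 stood at most at 0.832 CPM. Both have near-identical copies in the genome, so these levels are uncertain.

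Genes of Polycomb repressive complex 2, which silences developmental genes and is the subject of the series, were measured in the same cells. Eed was at 8.74 and 9.07 CPM in high and 13.1 to 15.4 CPM in low libraries and was not called (adjusted p = 0.116). Ezh2, the catalytic subunit of dividing cells, was at 49.5 and 26.6 CPM against 145 to 204 CPM (log2 fold change -2.22, SE 0.34, adjusted p = 7.83e-05). Of 10 tested members, 4 were lower and 1 was higher (median log2 fold change -0.57), beside 27.0% and 25.3% of all loci. The higher one, Rbbp7, lost its call when any low library or control high replicate 1 was left out (adjusted p = 0.0502 to 0.468). Ezh1, among the lower, lost it without any low library or control high replicate 2 (0.0504 to 0.537). Jarid2, a cofactor of the complex, was listed at 0 in all 4 low libraries and at 117 to 134 CPM in the high ones. Outside the low control group each library of the series had 412 to 2661 fragments of it, so the 0 may be a failed estimate, and Jarid2 was left out of the list's counts and of the ranking.

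The 2 control high libraries differed in the levels of tubule genes and of other lists. Of 35 proximal tubule genes 26 were higher in replicate 1, while 10 of 12 loop genes, all 13 distal tubule genes and 13 of 17 collecting duct genes were higher in replicate 2. The summed distal level was 18979 CPM in replicate 1 and 27013 CPM in replicate 2. Outside the tubule lists, 12 of 15 immune, 13 of 19 stromal and 11 of 16 epithelial genes were also higher in replicate 2. In replicate 1, 17 of 25 progenitor and 15 of 23 proliferation genes were higher. The share over all loci was not counted, so the lean to replicate 2 is not shown to be particular to these segments. With 1 library each, these are differences between libraries and carry no test. Replicate 2 was also the shallower library and the one with 10.3% of its fragments on chromosome M.

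**Figure D5:**
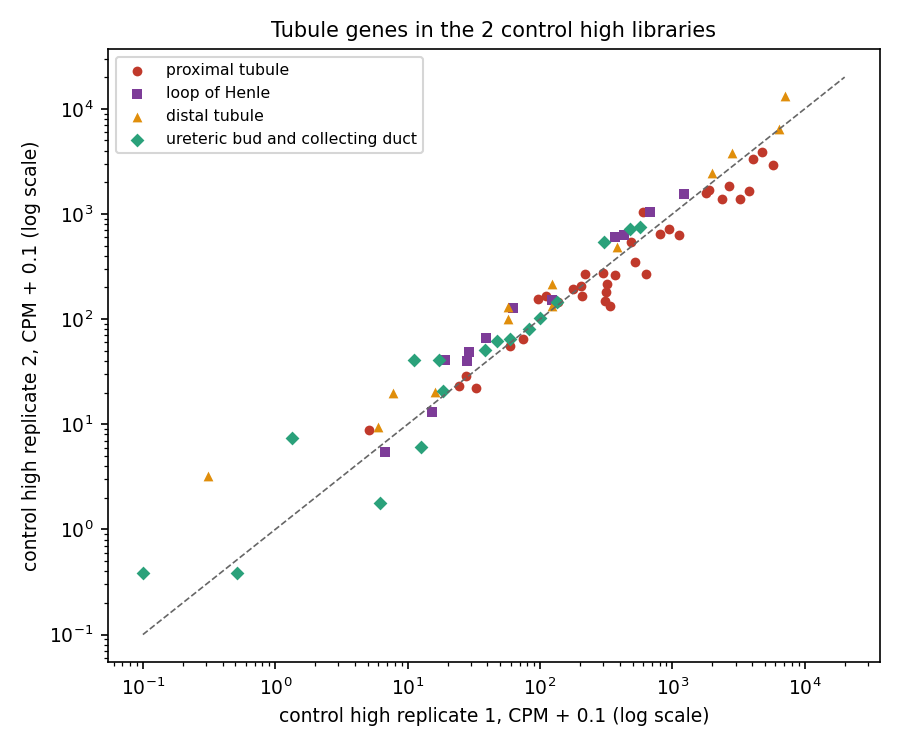
CPM plus 0.1 of the 77 genes of the 4 tubule lists in control high replicate 2 against replicate 1, both on log axes, with the line of equal levels dashed. Proximal tubule genes (circles) lie mostly on or below the line, and loop (squares), distal (triangles) and collecting duct genes (diamonds) mostly above it.

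The mutant libraries share no library with the control comparison but entered the same fit. They gave the same contrast with 2613 loci higher (19.0%) and 1814 lower (13.2%). Of the 35 proximal tubule genes higher in control high cells, 33 were also higher in mutant high cells, as were all 15 epithelial genes. Of the 21 lower progenitor genes, 16 were also lower in mutant high cells, with a list median of -1.84 beside -3.98 in control cells. The summed proximal level was 4882 and 5616 CPM in mutant high and 146 to 227 CPM in mutant low libraries. Six2 fell by 2.91 between mutant low and high cells, and the difference from the control change was 2.49 (interaction adjusted p = 0.011). The high to low change differed between mutant and control cells at 1422 loci (10.3%) and for 12 of the 25 progenitor genes, against 3 of the 35 proximal tubule genes.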

How the data were processed

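Per UCSC transcript, with mm9 positions, the deposited values are raw fragments that CuffDiff2 assigned, by the table's own title. As estimated counts they need not be whole, and the title calls them raw, so the authors had not normalized them. Bowtie2, HTSeq, DESeq2 and mm9 are named, without roles, in the submitters' processing notes. How strand and shared reads were handled is not given in the sources used here. SMART-Seq cDNA does not mark strand, so a gene and its antisense partner cannot be told apart.

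Groups came from the titles. Transcripts overlapping on one strand were summed to 26699 loci and rounded to whole counts. Deposited starts count from 0 and are printed with 1 added. Loci were named by matching transcript spans, and distances to at least 2 neighbouring genes within 2000000 bases, between mm9 and the GRCm38 annotations of GENCODE and RefSeq (end tolerance 50 bases). This compares distances within each build and works much like a local conversion. It named 22362 loci and 88.0% of transcripts, and 1.21% with distances set off by about 30 kb. Its settings were chosen after seeing how many listed genes were found, without using expression differences. Of 323 list entries, 312 were located.

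All 12 libraries entered 1 fit of 4 groups with edgeR 4.0.16 in R 4.3.3 (TMM, filterByExpr, robust quasi-likelihood test, two-sided, Benjamini-Hochberg 0.05). On simulated data with far fewer changed loci than were called here, the fit missed most 2-fold and many 4-fold changes. That setting differs from the data, so misses need not be as frequent here. A gene that was not called is not shown to be unchanged. The fit keeps genes through whichever group expresses them, so a gene absent from 1 group had to differ. The rule for named genes took the 5 most abundant and first 2 of each list and the 12 largest changes each way. A further 35 tested genes, among them Lrp2, Fgf9, Pax2, Aqp2, Foxi1 and Ntn1, were named after their values were seen. Jarid2 was passed over, and some genes that the rule or the lists hold are not reported here by name. The members and lists were chosen with earlier results of these data known. Alternatives included DESeq2 1.42.0 and limma-voom (limma 3.58.1). Intervals and floors of 3 fragments cover counting error only.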

Additional observations from a re-analysis of the deposited data

Results flagged for a closer look

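Within the 4 control low libraries, 7 of 188 values screened had 1 library far from the other 3 by Dixon's ratio of the gap to the range at its 95% critical value. Chance flags about 5% of such groups. The summed distal tubule level was 1531 CPM in replicate 2 and 536 to 573 CPM in the others (ratio 0.962). Cyp27b1 was at 2.58 CPM in replicate 2 and at most 0.468 CPM elsewhere (ratio 0.846). In replicate 3, Papss2 was low at 10.9 CPM against 17.3 to 18.5 CPM (ratio 0.845), and Notch2 was high at 214 CPM against 130 to 144 CPM (ratio 0.833). Lfng, a Notch modifier, was at 55.7 CPM in replicate 3 and 41.7 to 43.4 CPM elsewhere (ratio 0.88). Pax2 was at 63.2 CPM in replicate 4 and at most 5.03 CPM elsewhere (ratio 0.95). Laptm5, an immune cell gene, was at 8.65 CPM in replicate 1 and 4.84 to 5.44 CPM elsewhere (ratio 0.844).

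The change between high and low cells differed between mutant and control libraries for 42 of the 168 named genes tested (edgeR interaction term, adjusted p under 0.05). Over all loci the share was 10.3%. Named genes were partly picked by the size of their control change, so their share need not match that of all loci. Values here are the mutant minus the control log2 fold change. Among progenitor genes the control fall was smaller in mutant cells, by 2.49 for Six2, 2.86 for Eya1, 3.33 for Rspo1, 1.11 for Sall1, 2.18 for Robo2, 2.85 for Hoxa11, 2.30 for Wt1 and 2.91 for Cited1. Some of the largest falls showed it too, at 3.90 for Tnfrsf19, 3.84 for C130021I20Rik, 3.69 for Sncaip and 3.52 for Mdga2. They were picked for the size of their control fall, which by itself favours a smaller fall in mutant cells. Signalling genes gave 3.0 for Hey1, 2.31 for Heyl, 2.54 for Mycn, 2.35 for Wnt4, 2.69 for Etv4, 2.94 for Wnt11 and 3.81 for Ret, and in mutant cells the last 2 rose instead (log2 fold changes 1.02 and 1.61). Mesenchymal and stromal genes gave 2.51 for Cdh11, 2.62 for Cdh2, 2.86 for Snai2, 2.78 for Zeb1, 3.18 for Meis2 and 1.61 for Tcf21. Cell cycle genes gave 1.66 for Ccnb2, 1.67 for Top2a and 1.39 for Mcm4. Ezh2 gave 1.48, Ezh1 1.22 and Hk2 1.61. The control rise was smaller in mutant cells by -3.11 for Papss2, -3.05 for Irx3, -2.58 for Ntn1, -2.21 for Fgf9, -2.01 for Gata3, -1.59 for Acadm, -1.67 for Cldn7 and -1.53 for Tpi1. Cd74, Lum and Postn rose more in mutant cells, by 2.92, 2.99 and 1.48.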

How the results depend on the processing

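Of 144 named genes called in the comparison, 30 of them chosen after their values were seen, 115 kept their call under all alternatives that gave a value, and none reversed among 3017 values. Of the 21 alternatives, 2 were chosen after seeing the data: the 8 libraries with shared description numbers (3173 higher, 3362 lower) and a term for description numbers above 7 (3697 and 3894). Leaving out 1 control library gave 2834 to 3377 loci higher and 2324 to 3643 lower. Against a log2 fold change of 1 (glmTreat), 2204 and 1788 control loci and 1453 and 293 mutant loci were called. In mutant cells, 857 loci were lower with each transcript as a feature and 1172 with the 8 libraries. The replicate numbers showed no pairing of the control samples (correlations of deviations -0.0555 and -0.0836 for the description number, -0.149 and 0.0555 for the title number). With 2 high libraries the deviations mirror each other, so this check cannot exclude pairing. Mutant libraries that share a description number gave 0.225 and 0.136. The replicate block by description number gave 3119 and 3445, and by title number 3444 and 3579. Other control counts stayed within 1.5 times, with DESeq2 at 3828 and 3524. With control samples only, 12819 loci were tested, and 3408 were higher and 3479 lower. In that edgeR fit Aldh1a2 and Ezh1 lost their calls (adjusted p = 0.0533 and 0.0989), and Hsd11b2 and Pax8 gained one (0.0212 and 0.0421). Genes not called changed sign: Cdh5 (0.0596 RLE, 0.000265 control samples only, 0.0879 title block, 0.0333 transcripts, 0.108 DESeq2, -6.4 to 1.06 leaving out 1 library), Rhpn1 (-0.00841 no filter, -0.151 transcripts, -0.38 to 0.37), Hba-a1 (-0.46 title block, -0.79 to 1.06), Pecam1 (-0.0466 description block, -0.54 to 0.83), Lhx1 (-0.273 description block, -0.205 title block, -0.295 the 8 libraries, -0.178 to 0.339), Cdh6 (-0.13 to 0.32), Aebp2 (-0.22 to 0.33), Esam (-0.0458 to 1.27) and Fn1 (-1.26 transcripts). With 4549011 fragments in the smallest library, loci of few fragments are the least certain.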
